A study of Caenorhabditis elegans with 21 samples.

Results

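The rnh family of Caenorhabditis elegans encodes ribonucleases H, enzymes that cut the RNA strand of RNA-DNA hybrids. The members were taken by their WBcel235 names from the deposited small RNA count table: rnh-1.0, rnh-1.1, rnh-1.2, rnh-1.3 (listed in the table and the annotation as WBGene00007303) and rnh-2. These are 5 of the 20134 genes of the table, and all 5 are annotated as protein-coding. The family was chosen by the counts of rnh-1.3 in these same libraries, which were many in wild type and few in mut-2 and mut-7. That contrast is therefore described without a test. The wild-type libraries used below for the dpf-3 comparisons also entered the choice, as did the libraries compared in mut-2 against mut-7.

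RNase H1 type enzymes act on longer hybrids such as R-loops, in which a transcript stays paired with its template, while RNase H2 also removes single ribonucleotides built into DNA and the RNA primers of Okazaki fragments. In C. elegans many genes are also templates for secondary small RNAs, called 22G-RNAs, which RNA-dependent RNA polymerases copy from messenger RNA. They are bound by Argonautes of the WAGO and CSR-1 groups, and only a part of them needs the mutator proteins. A small RNA count for a gene therefore reports how many small RNAs matched its annotation, not how much of its messenger RNA or enzyme was present.

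Small RNAs came from whole worms at the L4 larval stage, grown at 15 °C on NA22 bacteria, and were treated with an RNA 5′ polyphosphatase so that triphosphorylated small RNAs could enter the libraries. The 21 libraries comprise 9 of wild type (A to I) and 3 each (A to C) of a dpf-3 null, the point mutant DPF-3 S784A, mut-2(ne3370) and mut-7(ne4255). DPF-3 is a dipeptidyl peptidase, MUT-2 a nucleotidyltransferase that adds tails to RNA, and MUT-7 a mutator protein with an exonuclease domain. The labels do not say how the null allele was made or whether replicates came from separate cultures, so each p-value reflects the spread among libraries, which may be technical.

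Each library had 40693 to 583038 counts in features, and 366911 to 1448677 reads counted in all. Reads outside features made up 63.9% ± 7.83 (SD, n = 9) of the reads in wild type and 90.3% ± 0.391 (SD, n = 3) in mut-2, with the other genotypes between. Levels are given as CPM, counts scaled to a total of 1000000 in the tested features after TMM (trimmed mean of M values) scaling. On this scale 3 counts in a library equal 6.07 to 50.7 CPM. RPM, used where stated, are scaled instead to all reads counted. The wild-type libraries A to F stood apart from G to I, which no label explains. TMM factors were 0.557 to 0.614 in the first 6 and 0.923 to 0.929 in the other 3, and values are given for both where they matter. In whole worms, fewer cells of a type and fewer small RNAs per cell cannot be told apart.

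rnh-1.3 lies on chromosome I from 9710088 to 9710745 on the minus strand (WBcel235), with 4 exons of 494 bases in all, 417 of them coding and 72 in the 3′ UTR. It is the smallest of the family and was by far its richest source of small RNAs. In wild type it had 5273 CPM in the lowest library, a median of 9785 and 11878 in the highest, from 1282 to 2875 counts per library. The dpf-3 null libraries had 941, 1116 and 1049 CPM. The DPF-3 S784A libraries had 714, 900 and 729 CPM. Every library of either dpf-3 genotype was below every wild-type library, and the 3 S784A libraries were below the 3 null libraries.

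In mut-2 the rnh-1.3 levels were 169, 126 and 237 CPM, from 35 counts in 3 libraries. In mut-7 they were 63.0, 31.6 and 83.1 CPM, from 21 counts. Thus all 6 mutator libraries stood below all dpf-3 libraries, and the mut-7 libraries below the mut-2 libraries. The genotype means were 8741 CPM ± 2387 (SD, n = 9) in wild type, 1035 ± 87.9 (n = 3) in the null, 781 ± 103 (n = 3) in S784A, 177 ± 55.9 (n = 3) in mut-2 and 59.2 ± 26.0 (n = 3) in mut-7.

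**Figure D1:**
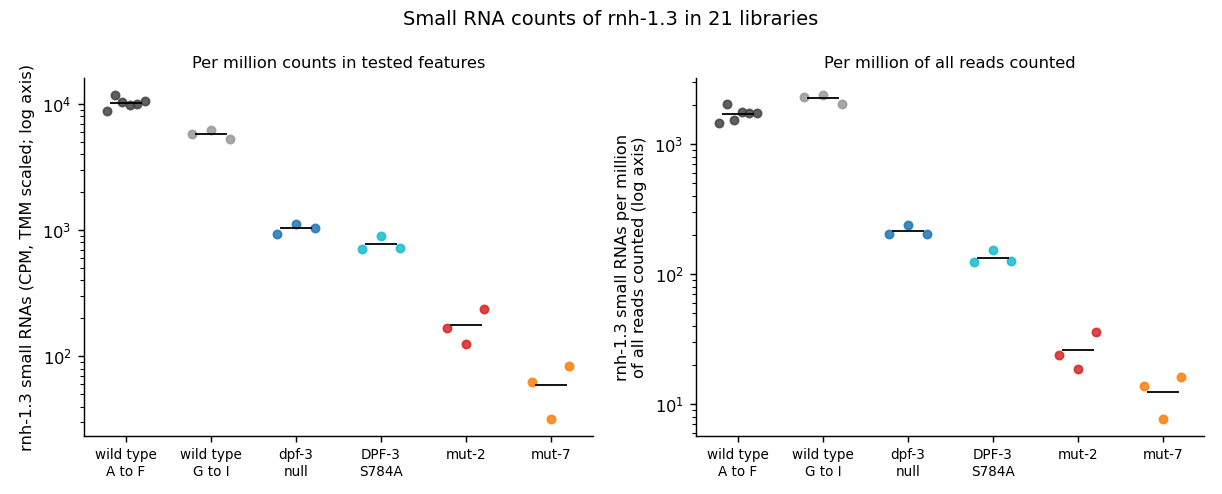
rnh-1.3 small RNAs in each of the 21 libraries, on log axes, as CPM (left) and as RPM of all reads counted (right); points are libraries and bars are means. Wild type is highest and mut-7 lowest on both scales, while the order of the 2 wild-type sets (10231 and 5762 CPM, and 1717 and 2257 RPM) is opposite between them.

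Both dpf-3 genotypes had lower rnh-1.3 small RNA levels than wild type. The fall was 8.44-fold in the null (log2 fold change -3.08, SE 0.30, edgeR quasi-likelihood test, adjusted p = 4.6e-08). In S784A it was 11.2-fold (log2 -3.49, SE 0.32, edgeR adjusted p = 4.2e-08). Of all 5038 features tested, 36.6% were called in the null and 28.9% in S784A, in either direction, so a call as such was common in these libraries. Both calls were made with each library left out in turn, and against A to F alone (log2 -3.31 and -3.73) and G to I alone (-2.48 and -2.90). With library totals they were -2.37 and -2.82.

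The null and S784A means of rnh-1.3 differed by 0.41 on the log2 scale (SE 0.32), and edgeR did not call this difference (adjusted p = 0.984) although the 2 sets of 3 libraries do not overlap. Between these genotypes 0.0397% of features were called. The main fit gave wild type 1 mean, so the difference between its 2 sets entered the spread shared by all tests. The common dispersion was 0.0947, and 0.00466 with wild type as 2 sets. In that second fit 28 features were called higher and 97 lower in the null than in S784A. The mut-2 mean was above the mut-7 mean by 1.60 on the log2 scale (SE 0.45), which was also not called (edgeR adjusted p = 0.134), where 0.854% of features were. With wild type as 2 sets, 130 features were called higher and 96 lower in mut-2 than in mut-7. That comparison passed the threshold under 6 other settings of the fit, with adjusted p from 0.0120 to 0.0338 and log2 values from 1.56 to 1.70. The libraries of both genotypes entered the choice of the family, so these p-values are no independent support. The same comparison passed in 0 of the 21 edgeR fits with a library left out, with adjusted p from 0.0572 to 0.519. Those fits also gave wild type 1 mean.

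Described without a test, the mean rnh-1.3 level was 49.4-fold lower in mut-2 and 148-fold lower in mut-7 than in wild type. These folds depended on the scaling, and were 19.9 and 57.5 with library totals, 72.6 and 152 relative to all reads counted, and 63.5 and 201 with the size factors of DESeq2. Against wild type G to I alone they were 32.5 and 97.3. In these contrasts 47.6% and 56.5% of features were called, from which nothing is read about a gene chosen for this difference. Relative to all reads counted, rnh-1.3 had 1897 RPM ± 328 (SD, n = 9) in wild type, 216 ± 21.9 in the null, 134 ± 16.3 in S784A, and for mut-2 26.1 ± 8.75 and for mut-7 12.5 ± 4.36 (n = 3 each). The order of the 5 genotypes is the same as in CPM. The difference between the wild-type sets is not, since A to F lie above G to I in CPM and their mean lies below in RPM.

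rnh-1.3 also dominated the family total. It held 98.5% ± 0.576 (SD, n = 9) of the family's counts in wild type, 87.3% ± 2.37 in the null, 82.2% ± 7.39 in S784A, and of those of mut-2 53.8% ± 12.5 and of mut-7 28.0% ± 8.27 (n = 3 each). Of all feature counts it took 0.531% ± 0.0557 in wild type and 0.00924% ± 0.00394 in mut-7. The family's profile across genotypes is thus, in wild type and the dpf-3 libraries, almost that of a single gene.

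Levels of different genes can be compared only per length, and so CPM were divided by the length of merged exons in kb. In wild type rnh-1.3 had 17695 CPM per kb ± 4832 (SD, n = 9), rank 7 among 20055 annotated genes. Its rank was 40 in the null, 51 in S784A, and for mut-2 and mut-7 it was 74 and 574. The next member in wild type, rnh-2, had 57.0 CPM per kb ± 11.6 and rank 2011, followed by rnh-1.2 with 21.4 ± 16.1, rnh-1.0 with 20.4 ± 8.56 and rnh-1.1 with 4.34 ± 6.63. Among the wild-type libraries the ranges of neighbouring genes in this order overlapped, except that every rnh-1.3 value was above every rnh-2 value.

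In the dpf-3 null the order per kb was rnh-1.3, rnh-2 (103 CPM per kb), rnh-1.2 (19.8), rnh-1.0 (11.4) and rnh-1.1 (0), and the same order held in S784A. The neighbours rnh-1.2 and rnh-1.0 overlapped in the null, and rnh-1.0 and rnh-1.1 in S784A. In mut-2 and mut-7 rnh-1.2 stood above rnh-2, with 75.4 and 77.4 CPM per kb against 50.9 and 45.6, but their ranges overlapped in both. In mut-7 the libraries of rnh-1.3 and rnh-1.2 overlapped too, which they did in no other genotype.

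The surroundings of rnh-1.3 were read next, since the table holds 55259 unnamed intervals besides the genes. Within 5 kb lie 10 features, of which 6 are intervals and 4 are genes, and 3 of these passed the low-count filter. The nearest is an interval of 146 bases at I:9709787-9709932 on the same strand, 156 bases downstream of the annotated gene end. It held 111 CPM in the lowest wild-type library, a median of 267 and 334 in the highest. The null libraries had 22.5, 11.4 and 14.6 CPM, and S784A had a single count, in library B. No wild-type library was as low as any dpf-3 library.

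This downstream interval was 14.4-fold lower in the null (log2 -3.71, SE 0.50, edgeR adjusted p = 6.7e-06) and was also called lower in S784A (edgeR adjusted p = 1.4e-05), where the ratio of wild type to mutant is 52.5 with a 95% counting interval of 9.37 to 2078. Neither mut-2 nor mut-7 had a count there, at least 15.7-fold and 29.0-fold below the mean of all wild-type libraries with 3 counts over the group as the floor. The interval had 283 CPM ± 30.1 (SD, n = 6) in A to F and 132 ± 24.0 (n = 3) in G to I. Against G to I alone these bounds are therefore smaller. Per 100 rnh-1.3 counts the interval had 2.59 in wild type (exact 95% interval 2.35 to 2.84, 457 counts), 1.64 in the null (0.747 to 3.14, 9 counts) and 0.500 in S784A (0.0126 to 2.82, 1 count), and the intervals overlap. These intervals cover counting error only.

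A second interval on the same strand, of 170 bases at I:9709139-9709308 and 780 bases from the gene, did not pass the filter. Wild type had 67 counts there, the null 3 and S784A 1, and both mutator genotypes had 0. The ratio of wild type to null was 5.24 (95% counting interval 1.72 to 26.0). Upstream on the same strand lies fce-1, which encodes a CAAX protease, 321 bases from rnh-1.3. It had 12.7 CPM ± 6.96 (SD, n = 9) in wild type and 16.99 ± 5.13 (n = 3) in the null, below the filter. Of the neighbours farther upstream, C16C2.4 had 46.1 CPM ± 14.7 in wild type and 42.4 ± 5.20 in the null, and ocrl-1, which encodes an inositol phosphatase, had 62.7 ± 28.0 and 78.5 ± 29.9.

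Neither C16C2.4 nor ocrl-1 was called in either dpf-3 genotype (edgeR adjusted p from 0.571 to 0.802). The low levels around rnh-1.3 in the dpf-3 libraries were therefore seen in the gene and the intervals downstream of it and not called in the tested genes upstream, and the difference between these features was not tested. The sixth feature plotted, C04F12.16 on the opposite strand, had 37 counts in wild type, all in G to I, and 2 in mut-7. Around the other 4 members, the unnamed intervals within 5 kb held 0 or 1 wild-type count.

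**Figure D2:**
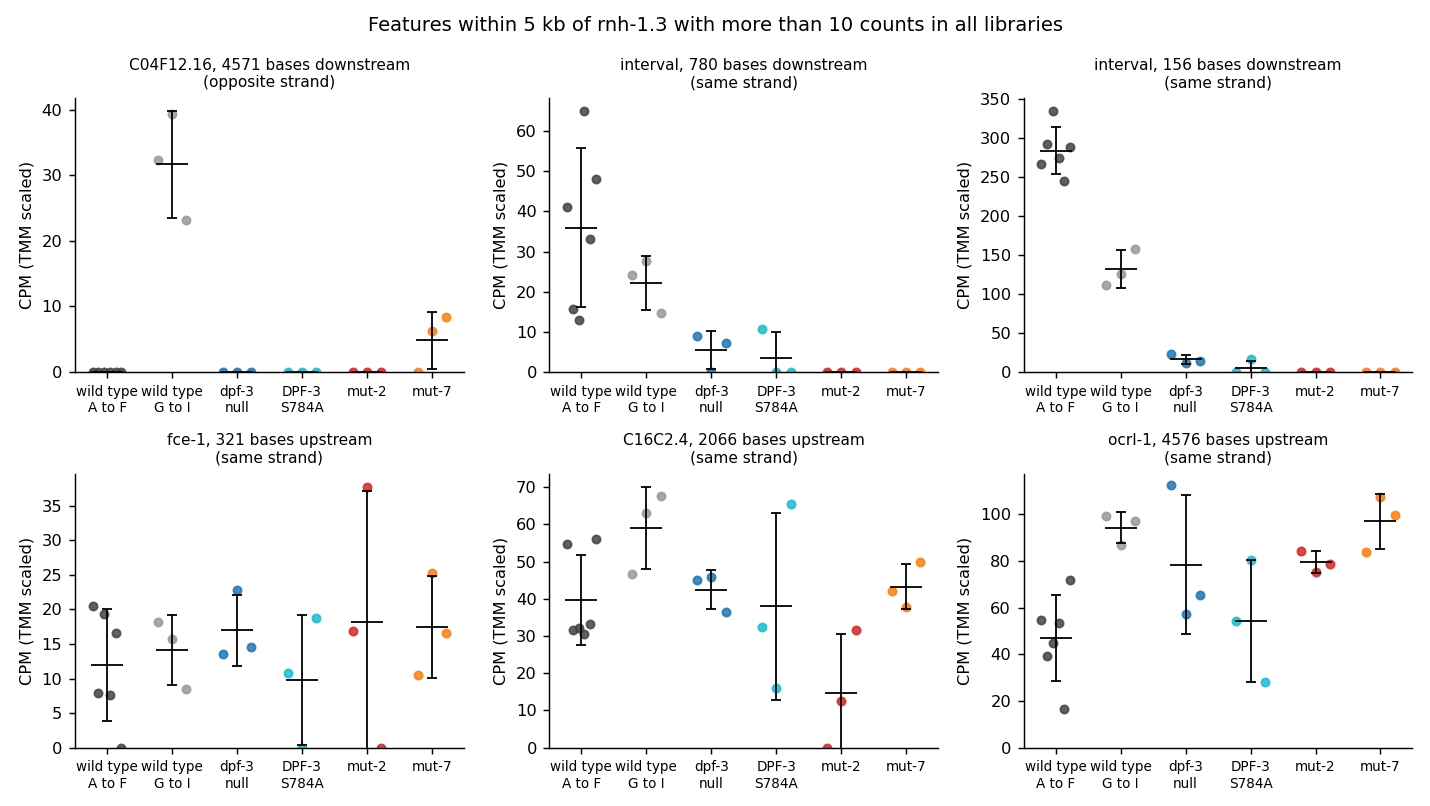
CPM of the 6 features within 5 kb of rnh-1.3 that had more than 10 counts over all libraries; points are libraries, long bars means and whiskers SD (cut at 0). The 2 intervals downstream on the strand of rnh-1.3 are highest in wild type and at 0 in mut-2 and mut-7, and the 3 genes upstream keep counts in every genotype. These are as few as 3 for fce-1 in S784A and for C16C2.4 in mut-2. C16C2.4 had 14.7 CPM in mut-2 against 46.1 in wild type, which was not tested.

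Of the other RNase H1 type genes, rnh-1.0 lies at II:4995327-4998035 on the plus strand with 1831 bases of merged exons, and overlaps vps-24 by 285 bases on the same strand and F59A6.11 by 360 bases on the other, so its counts are uncertain where reads could belong to a neighbour. It had 22.3 CPM in the lowest wild-type library, a median of 34.3 and 72.0 in the highest, from 4 to 11 counts each. The null libraries had 13.5, 34.3 and 14.6 CPM, from 3, 6 and 2 counts. The S784A libraries had 0, 16.1 and 9.35 CPM, from 0, 1 and 1 counts, and all lay below the wild-type range.

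rnh-1.0 was below the low-count filter, and its mean CPM was compared by 2-sided exact permutation tests, of which 8 were made for the 2 genes below the filter, without adjustment. The S784A mean of 8.47 CPM ± 8.07 (SD, n = 3) was below the wild-type mean of 37.4 ± 15.7 (n = 9), exact p = 0.0182, with a wild type to mutant ratio of 4.25 and a 95% counting interval of 1.14 to 35.7. With each library left out in turn the exact p was 0.0121 to 0.0364. With library totals the means were 8.25 against 22.7 (exact p = 0.0091). The wild-type mean was 44.0 CPM ± 15.3 in A to F (n = 6) and 24.3 ± 2.84 in G to I (n = 3). The null mean of 20.8 ± 11.7 (n = 3) was not distinguishable from wild type (exact p = 0.123). That result turned on the setting: the exact p was 0.0476 against A to F alone and 0.6 against G to I alone, 0.0455 with all reads counted and 0.777 with library totals (20.7 against 22.7 counts scaled to 1000000). With a library left out it was 0.0364 to 0.218, and 3 of 12 such tests were below 0.05, those without null B (0.0364) and without wild type G or I (0.0485 each). For both 3 against 9 comparisons the smallest p possible is 0.0045. Against G to I alone, 3 against 3 libraries, it is 0.1, so neither dpf-3 genotype could fall below 0.05 there.

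The null and S784A means of rnh-1.0 were not distinguishable by the same test (exact p = 0.3), nor were mut-2 (19.3 CPM ± 5.12, n = 3) and mut-7 (14.6 ± 13.01, n = 3, exact p = 0.8), and 3 against 3 libraries cannot give a p below 0.1. Libraries of mut-2 had 1, 2 and 1 counts and those of mut-7 0, 3 and 3. At 3 counts per library being 18.9 to 50.7 CPM in the mutator libraries, differences of the size seen here could not be resolved.

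rnh-1.1 lies at II:7525738-7528239 on the plus strand, with 1615 bases of exon and 1521 coding. It is named with the RNase H1 type genes, and it had the lowest level of the family per kb in wild type. It had no count in wild type A to F or in any of the 6 dpf-3 libraries, where 3 counts over the 12 libraries allow up to 1.62 CPM. In G, H and I it had 8, 6 and 11 counts, or 21.01 CPM ± 4.18 (SD, n = 3). In mut-2 the counts were 1, 1 and 0, and in mut-7 4, 1 and 0. The gene thus separated the wild-type sets and not the dpf-3 genotypes from A to F. Against all 9 wild-type libraries the exact permutation p was 0.509 for either dpf-3 genotype.

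The profile of rnh-1.1 was shared. Of 5896 features with at least 6 counts in each of G to I, 61 (59 of them genes) had no count in the same 12 libraries. Sperm genes were among them. The list of major sperm protein genes and other sperm genes was drawn up after the data were seen, so its overlap is no test. It has 57 genes in the table, 7 of which have the profile, against 59 of all 20134 genes. Those 20134 are not a matched background, since the profile needs at least 6 counts in each of G to I. In G to I 54 of the 57 list genes had a count, and how many reached that minimum was not counted. Among the 7 are gsp-4, which encodes a phosphatase of sperm, smz-2 and nspd-2. The summed list was 15.8 to 53.4 CPM in A to F, 1269 to 1544 in G to I, 40.5 to 62.9 in the null, 16.1 to 86.5 in S784A, 78.9 to 186 in mut-2 and 565 to 751 in mut-7. Counts of gsp-4 were 0 in A to F, 40 in G to I, 0 in both dpf-3 genotypes, 1 in mut-2 and 7 in mut-7. The part of sperm gene small RNAs in the rnh-1.1 counts was not tested.

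rnh-1.2 lies at II:9841095-9842035 on the minus strand, with 847 bases of exon, 576 coding and 254 in the 3′ UTR. Its wild-type libraries ranged from 6.43 to 48.0 CPM with a median of 15.3, from 1 to 9 counts. The null libraries had 31.5, 11.4 and 7.28 CPM, and the S784A libraries 21.6, 32.1 and 37.4 CPM. The 3 groups overlap. In mut-2 the levels were 84.5, 75.5 and 31.6 CPM, and in mut-7 84.0, 37.9 and 74.8 CPM. The higher values of both mutator genotypes exceeded the wild-type range, and the lowest library of each fell within it.

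The dpf-3 comparisons of rnh-1.2 were tested and neither was called. The log2 fold change was 0.01 (SE 0.45) in the null (edgeR adjusted p = 0.994) and 0.74 (SE 0.60) in S784A (edgeR adjusted p = 0.400). Between null and S784A it was -0.73 (SE 0.71, edgeR adjusted p = 0.984), and between mut-2 and mut-7 0.01 (SE 0.57, edgeR adjusted p = 1.0). As a description without a test, mut-2 stood at a log2 of 1.79 above wild type and mut-7 at 1.78. Both lie in the direction opposite to rnh-1.3. The values rest on 13 and 23 counts and moved with the scaling. They were 2.96 and 3.00 with library totals, 1.46 and 1.36 with DESeq2 size factors, and 1.02 and 1.57 with all reads counted. As RPM, the mean of wild type G to I was 8.68 ± 3.10 (n = 3), and mut-2 lay next to it with 9.31 ± 3.95 (n = 3). Wild type A to F had 2.72 ± 2.64 RPM (n = 6). The mut-7 mean, 14.0 ± 4.67 RPM (n = 3), was above both wild-type sets.

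rnh-2 encodes the catalytic subunit of RNase H2 and lies at II:8517150-8518407 on the plus strand, with 1103 bases of exon, 891 of them coding. Its wild-type libraries had 40.5 CPM at the lowest, a median of 70.7 and 74.8 at the highest, from 7 to 29 counts. The null libraries had 99.1, 80.1 and 160 CPM, from 22, 14 and 22 counts, all above wild type. The S784A libraries had 119, 64.3 and 206 CPM, from 11, 4 and 22 counts, and library B lay within the wild-type range. In mut-2 the levels were 67.6, 37.7 and 63.1 CPM, and in mut-7 52.5, 56.8 and 41.6 CPM, all within or close to the wild-type range.

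rnh-2 small RNAs were higher in both dpf-3 genotypes, opposite in direction to rnh-1.3. The null mean of 113 CPM ± 41.9 (SD, n = 3) was 1.80-fold the wild-type mean of 62.9 ± 12.8 (n = 9), with a log2 fold change of 0.84 (SE 0.28, edgeR adjusted p = 0.0208). The S784A mean of 130 ± 71.3 (n = 3) was 2.06-fold (log2 1.12, SE 0.30, edgeR adjusted p = 0.0062). Of all features tested, 13.5% were called higher in the null and 7.94% in S784A. Subtracting the median log2 fold change of all features left 0.67 in the null and 1.08 in S784A.

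The rnh-2 calls were lost under settings that left the rnh-1.3 calls in place. With DESeq2 size factors in the edgeR fit the null value was 0.47 (adjusted p = 0.265), and with all reads counted the values were 0.64 in the null (adjusted p = 0.287) and 0.63 in S784A (adjusted p = 0.335). The null call was lost in 6 of 21 fits with a library left out, without null A or C or wild type A, D, G or I (log2 0.55 to 0.84, adjusted p 0.0565 to 0.219). The S784A call was lost without S784A C (log2 0.60, adjusted p = 0.295). Against A to F alone the values were 0.75 and 1.12, and against G to I 0.95 and 1.32, all called by edgeR. The direction was higher in every one of these fits.

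Scaled to all reads counted, rnh-2 had 14.9 RPM ± 7.04 (SD, n = 9) in wild type, 23.3 ± 7.10 (n = 3) in the null and 22.3 ± 12.4 (n = 3) in S784A. In wild type the sets differed on that scale, with 10.9 ± 1.84 in A to F (n = 6) and 23.0 ± 6.56 in G to I (n = 3). The null and S784A means lie above that of A to F and next to that of G to I. Between null and S784A (log2 -0.27, SE 0.36, edgeR adjusted p = 0.984) and between mut-2 and mut-7 (0.12, SE 0.48, edgeR adjusted p = 1.0) rnh-2 was not called.

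**Figure D3:**
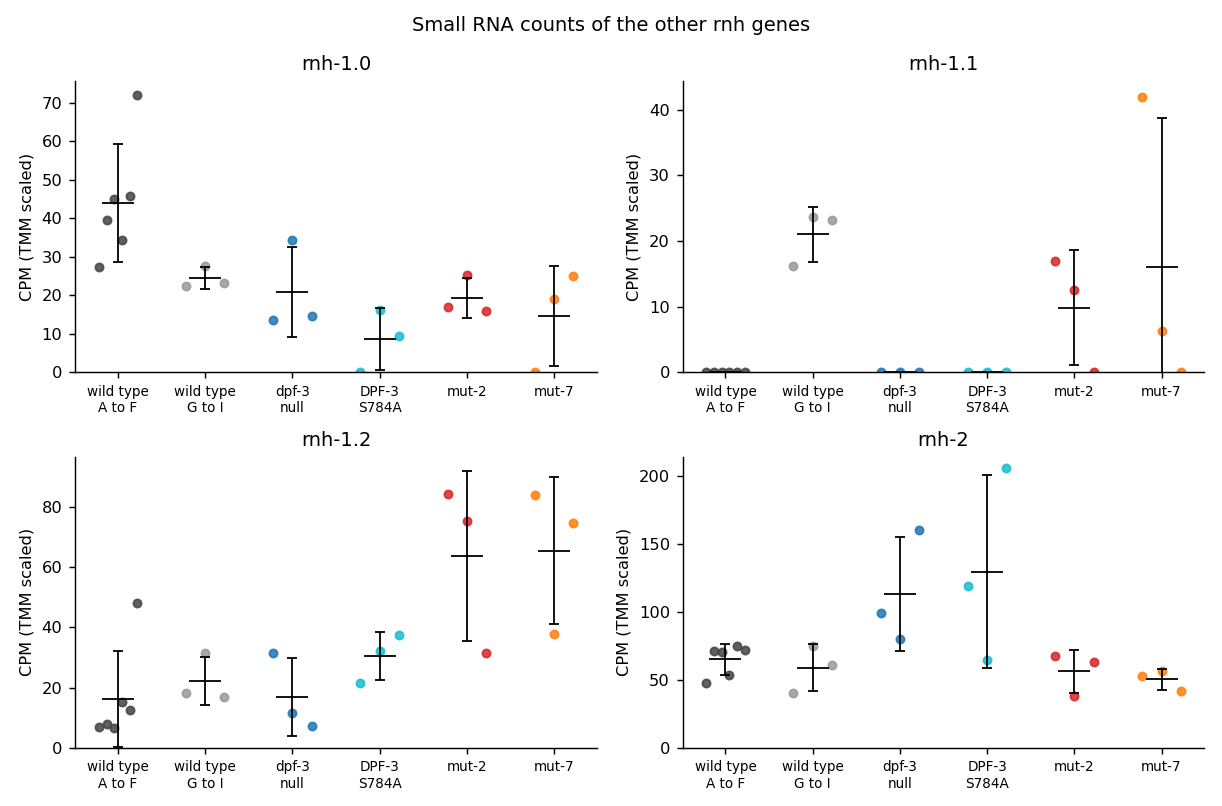
CPM of the 4 family members other than rnh-1.3 in each library; points are libraries, long bars means and whiskers SD (cut at 0), on axes that differ between genes. rnh-1.1 is at 0 in wild type A to F and both dpf-3 genotypes, rnh-1.2 is highest in the mutator libraries, and rnh-2 is highest in the dpf-3 libraries.

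**Figure D4:**
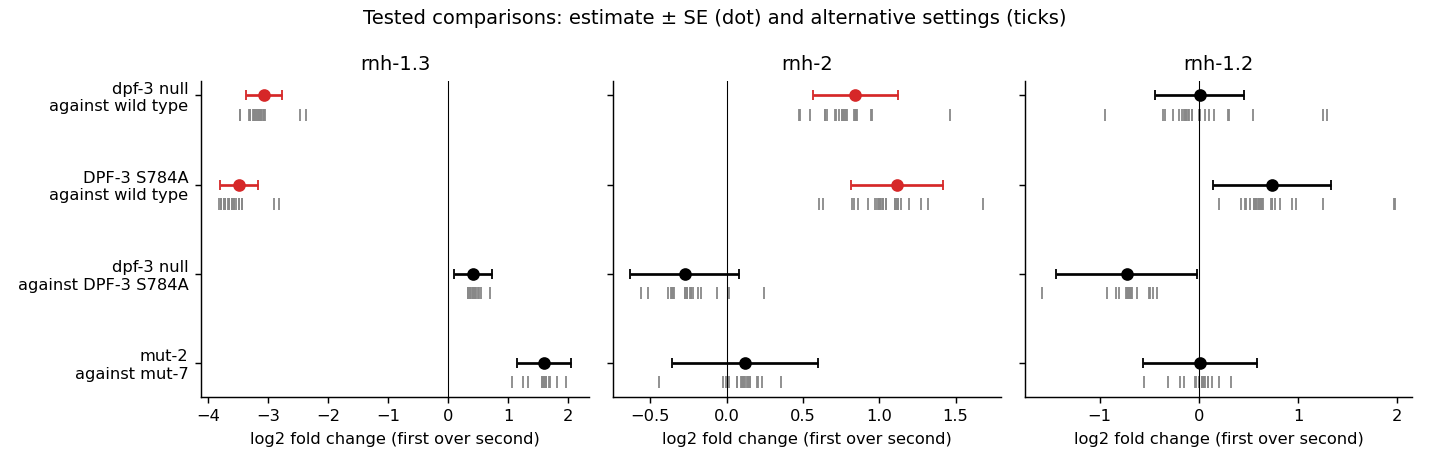
Log2 fold change of the 3 tested members in the 4 tested comparisons. Of these, only null against S784A compares no library that entered the choice of the family, though all 21 libraries set the filter, scaling and spread. Dots with bars are estimates with SE, red where called by edgeR. Grey ticks are the alternative settings and the fits with a library left out. The rnh-1.3 ticks all lie on the same side of 0 as the estimate, the rnh-2 ticks against wild type all lie above 0, and ticks of rnh-1.2 fall on both sides in 2 of its comparisons.

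Other genes of hybrid processing and Okazaki fragment maturation were read from a list of 42 names that covers helicases, topoisomerases, flap and repair nucleases, THO and export factors and replication enzymes. Of these 41 are in the table (pold-1 is not in the annotation under that name) and 39 were tested. In the null 11 were called higher and 0 lower by edgeR (17 and 0 at an unadjusted p under 0.05, 0 and 1 with DESeq2). Their median log2 over the tested list was 0.54, against 0.18 over all features and 0.25 over all tested genes. In S784A 3 were called higher and 0 lower (11 and 0 at an unadjusted p under 0.05, 1 and 1 with DESeq2). The median of the tested list there was 0.42, against 0.04 over all features and 0.11 over all tested genes. The background is 13.5% of features higher in the null and 7.94% in S784A. Between the dpf-3 genotypes and between mut-2 and mut-7 0 list members were called by edgeR or DESeq2 (3 and 1 at an unadjusted p under 0.05).

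The list members with the smallest p in the null were dna-2, a helicase and nuclease of primer removal (259 CPM ± 26.0, n = 3, against 145 ± 50.8, n = 9, log2 0.88, SE 0.23, edgeR adjusted p = 0.0037), and dog-1, a FANCJ type helicase (368 ± 47.4 against 235 ± 36.1, log2 0.64, SE 0.18, edgeR adjusted p = 0.0061). In S784A they were brd-1, the partner of BRC-1 (171 ± 39.0 against 68.2 ± 19.2, log2 1.28, SE 0.27, edgeR adjusted p = 0.00067), and dna-2 (279 ± 26.7, log2 0.99, SE 0.24, edgeR adjusted p = 0.0031). Each of these 4 calls was lost under at least 1 other scaling. The number of members called higher moved with the scaling, as did the share of all features called higher. In the null it was 32 with library totals (43.5% of all features), 2 with all reads counted (1.71%) and 0 under the size factors of DESeq2 (1.17%, and 1 member lower). Without null A it was 1 (4.37%). In S784A it was 28 with library totals (30.8%), 0 with all reads counted (0.834%) and 1 under the size factors of DESeq2 (1.41%).

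Between the dpf-3 genotypes the smallest p of the list belonged to brd-1 (log2 -0.94, SE 0.33, edgeR adjusted p = 0.837) and rfc-1, a subunit of the clamp loader (1.08, SE 0.48, edgeR adjusted p = 0.970). Between mut-2 and mut-7 they belonged to top-2, a topoisomerase (-0.49, SE 0.21, edgeR adjusted p = 0.347), and dna-2 (0.56, SE 0.30, edgeR adjusted p = 0.524). Given as values only, the list members with the smallest p against wild type were rcq-5 (288 CPM against 83.1) and dog-1 (614 against 235) in mut-2, and xpf-1, a repair nuclease (175 against 42.4), and brd-1 (261 against 68.2) in mut-7. In mut-2 13 of 39 and in mut-7 16 of 39 were called higher and 0 lower (2 lower with DESeq2 in each), where 16.1% and 23.3% of features were called higher. With all reads counted 3 members were called higher for mut-2 (against 1.53% of all features) and 7 for mut-7 (8.02%). With library totals these were 37 (50.1%) and 38 (58.1%).

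The tested features most like rnh-1.3 in log2 CPM over the 21 libraries, by Pearson correlation as a description, were hmg-11 (r = 0.992), which encodes a high mobility group protein, fbxb-14 (0.989), an interval of 3291 bases at IV:17388890-17392180 on the plus strand (0.987), ceh-20, a homeobox gene (0.987), and arrd-15 (0.986), an arrestin domain gene. The points share the libraries and the difference between genotypes. hmg-11 had 3550 CPM ± 1229 (SD, n = 9) in wild type, 462 ± 36.4 in the null, 555 ± 27.1 in S784A (n = 3 each). The mutator means were 128 ± 49.4 for mut-2 and 39.7 ± 9.33 for mut-7 (n = 3 each). The interval on chromosome IV and arrd-15 had no count in mut-7. The nearest downstream interval of rnh-1.3 ranked 563 of 5037 (r = 0.933), rnh-2 ranked 2151 (r = 0.078) and rnh-1.2 ranked 4631 (r = -0.72).

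**Figure D5:**
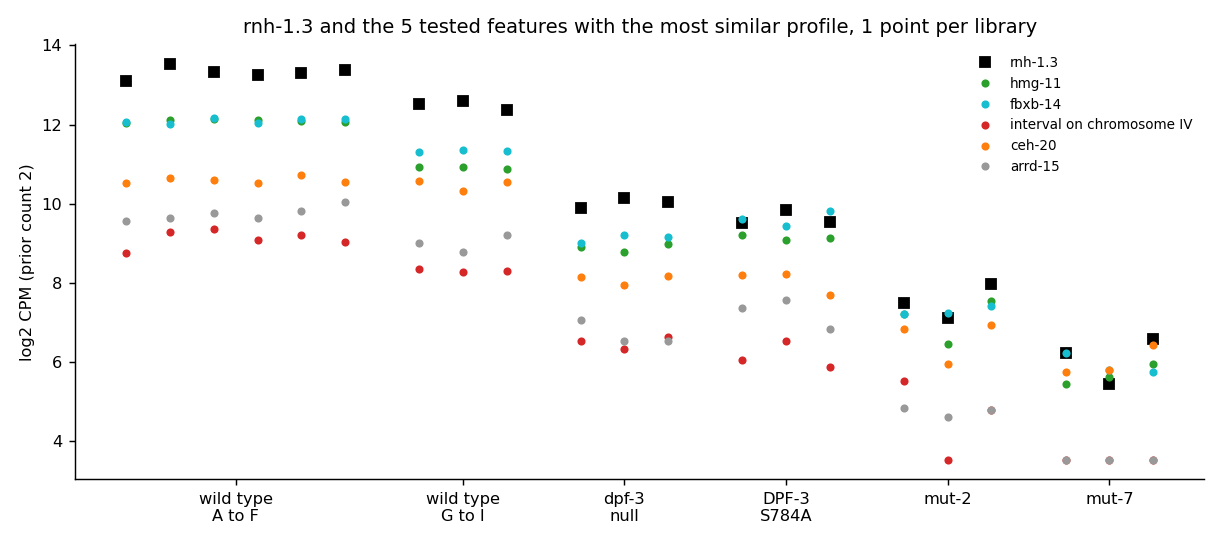
Log2 CPM (prior count 2) of rnh-1.3 and the 5 tested features with the highest correlation to it, 1 point per library in the order of genotypes. All 6 profiles step down from wild type over the dpf-3 genotypes and mut-2 to mut-7, and rnh-1.3 is the highest of the 6 in wild type and in the dpf-3 null.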

How the data were processed

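The deposited values are whole-number counts of small RNA reads per feature and library, and per the submitters' processing notes the authors used cutadapt 2.3, Bowtie 1.2.3, SAMtools 1.9 and HTSeq 0.11.2 with the ce11 assembly, without roles. How strand and multiply mapped reads were handled was not stated. The count table has 75393 features (20134 genes and 55259 intervals) and 0 unmapped columns. Reads in no feature or ambiguous, 63.9% ± 7.83 (SD, n = 9) of reads in wild type, stayed out of library sizes. edgeR 4.0.16 in R 4.3.3 was fitted to all 21 libraries with 1 mean per genotype, TMM and filterByExpr, which kept 5038 features, with Benjamini-Hochberg adjustment over them and a threshold of 0.05. Genes below the filter were compared by exact permutation tests in SciPy 1.17.1. The common dispersion was 0.0947, and 0.00466 with wild type as 2 sets. The scripts were tested on simulated data. The members, lists, tests and alternatives were chosen with earlier results of these data known. Named features are the 5 genes, the features within 5000 bases of rnh-1.3, the 5 most correlated features and, per comparison, the 2 list members with the smallest p. Alternatives were other scalings, no filter, DESeq2 1.42.0, wild type as 2 sets, a replicate block and each library left out.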

Additional observations from a re-analysis of the deposited data

Results flagged for a closer look

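In wild type, rnh-1.0 in library F (72.0 CPM, 9 counts) stood apart from the other 8 libraries: its gap to the nearest of them was 0.529 of the whole range of the group. Of the 5 family members checked in this way in the 9 wild-type libraries this was the one that stood apart, and chance does so in about 1 in 20 groups. Without library F the difference from S784A had an exact permutation p of 0.0121.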

How the results depend on the processing

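The rnh-1.3 calls in both dpf-3 genotypes were made under every alternative run. The mut-2 to mut-7 difference of rnh-1.3 passed the threshold with DESeq2 (log2 1.70, adjusted p = 0.0230), library totals (1.56), no filter (1.56), wild type as 2 sets (1.61), libraries A to C alone (1.61, chosen after seeing the data) and the replicate block (1.62). It passed in 0 of 21 fits with a library left out, and the libraries of both genotypes entered the choice of the family. rnh-2 lost its call in the null with no filter (0.64), DESeq2 (0.48), its size factors alone (0.47), all reads counted (0.64) and libraries A to C alone (0.78), and in S784A with DESeq2 (0.86), all reads counted (0.63) and no filter (0.83). Directions changed for rnh-1.2 in the null with DESeq2 (-0.36), DESeq2 size factors (-0.34), all reads counted (-0.26), no filter (-0.20) and against G to I (-0.13). They changed between mut-2 and mut-7 for rnh-1.2 with all reads counted (-0.55), library totals (-0.041) and no filter (-0.032), for rnh-2 with all reads counted (-0.44) and for rnh-1.0 with all reads counted (-0.29 RPM). With all reads counted the rnh-2 difference between null and S784A became 0.013. With each library left out, rnh-2 ran from 0.55 to 0.95 in the null, 0.60 to 1.27 in S784A, -0.56 to 0.24 between them and -0.025 to 0.36 between mut-2 and mut-7. rnh-1.2 ran from -0.94 to 0.30 in the null and -0.31 to 0.32 between mut-2 and mut-7, and rnh-1.0 from -2.66 to 9.81 CPM between mut-2 and mut-7. The causes were not tested. The labels do not say whether letters pair libraries. The 30 correlations of same-letter deviations ran from -0.0461 to 0.0598. Low counts could hide a shared effect and unlike letters were not compared, so pairing is not excluded. The replicate block was fitted to libraries A to C only. With it edgeR called rnh-2 in the null (adjusted p = 0.0492) and rnh-1.3 between mut-2 and mut-7 (adjusted p = 0.0142). Without the block the same libraries also gave the rnh-1.3 call, but not the rnh-2 call. Median log2 fold changes of all features in the null were 0.18 with TMM, 0.76 with library totals, -0.06 with all reads counted and -0.19 with DESeq2 size factors, and rnh-2 lay 0.66 to 0.71 above these medians. Depth limits rnh-1.0, rnh-1.1 and rnh-1.2, which have few counts in each library.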
